A study of Arabidopsis thaliana with 48 samples.

Results

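The genes described here had lower total RNA values after the herbicide chlorsulfuron (spelled chlorosufuron in the labels) in both gcn2 mutant and wild-type seedlings of Arabidopsis thaliana. They were chosen from the group means of log2 values on the total RNA arrays: herbicide minus mock at most -0.5 in each genotype, with a mock mean of at least 6 in each. Of 22746 probe sets tested, 188 met these limits, 96 of them carried the name of 1 gene, and 6 of those were left out by name (AT4G15680, AT4G15690, MCCA, MCCB, PYE and PDF1.4), which left 90 genes, each with 1 probe set. Of these, 26 lie on chromosome 1, 9 on chromosome 2, 25 on chromosome 3, 6 on chromosome 4, 23 on chromosome 5 and 1, psbD, in the plastid genome. The study hybridised 48 Affymetrix ATH1 arrays with RNA from the aerial part of seedlings 10 days old, of the line Landsberg erecta. The 4 groups were gcn2 with herbicide, gcn2 with mock, wild type with herbicide and wild type with mock. The labels do not give the gcn2 allele. All seedlings were grown on a medium with sucrose, submerged for 1 min in herbicide or in solvent alone (mock) and harvested 2 h later. The dose is uncertain, since the labels name 0.5 mM but describe a 10000-fold dilution of 5 mM, or 0.5 µM, a 1000-fold gap. Each group had 3 total RNA arrays and 3 sucrose gradients, and each gradient gave 3 arrays, for non-polysomal RNA, for small polysomes and for large polysomes. Whether replicates were grown separately, and whether total RNA and gradients shared seedlings, is not in the labels, and p-values therefore cover only the spread among these samples.

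Chlorsulfuron inhibits acetolactate synthase, the first common enzyme of branched-chain amino acid synthesis in plants. GCN2 is a protein kinase that is activated by uncharged tRNA and phosphorylates the translation initiation factor eIF2α, which lowers the start of translation. An mRNA under translation carries several ribosomes and sediments in the polysome part of a gradient, whereas an mRNA without ribosomes stays near the top, in the non-polysomal part. Fraction arrays therefore show both how much of an mRNA there is and how it is spread between ribosome-bound and free RNA. Array values are relative to the other RNAs on the array, so a shift shared by every RNA would not appear.

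The total RNA values chose the genes and are given without a test. The herbicide minus mock difference in total RNA had a median of -0.61 in gcn2 (range -1.89 to -0.50) and of -0.64 in wild type (range -1.27 to -0.50), against medians of -0.06 and -0.02 over all probe sets. A difference of -1 or below was seen for 6 genes in each genotype. Just inside the limits lay AT3G54750, with -0.59 in gcn2 and -0.50 in wild type, AT5G06370 and AT1G67910. Just outside them lay AT2G35450, AT1G65900 and AT3G12710, the last with -0.72 in gcn2 and -0.495 in wild type. All 3 herbicide arrays lay below all 3 mock arrays for 73 of the 90 genes in gcn2 (17% of all probe sets) and for 84 in wild type (13.4%), counts of the values that chose the genes. The genotypes differed most for AT1G62510, a small protein of the lipid-transfer and seed-storage superfamily, at -1.77 in gcn2 and -0.56 in wild type. At the other end was PRN, the pirin that binds the G protein alpha subunit, at -0.54 in gcn2 and -1.27 in wild type. In bulk seedlings, fewer cells of a type and less RNA per cell cannot be told apart.

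The wild-type gradients of replicate 3 went against their labels and are described before any result that uses them. Over the 90 genes, the median of herbicide minus mock in wild type was -0.58, -0.62 and 0.47 in non-polysomal RNA of replicates 1, 2 and 3, and -0.64, -0.59 and 0.47 in small polysomes. In replicate 3 the library labelled herbicide was thus the higher one, and the mean of the 3 fractions was higher in it than in the library labelled mock for 76 of the 90 genes. The 201 probe sets chosen by the mirror rule (both total RNA differences at least 0.5) had a median of -0.61 in non-polysomal RNA of the same gradients, against 0.72 and 0.71 in replicates 1 and 2. Total RNA of wild-type replicate 3 followed its labels, at -0.64. Counts of called genes that rest on wild-type fractions are therefore given with and without these gradients below, and the labels were left as they are. A further wild-type array, mock large polysomes of replicate 1, had a median of 5.67 over all probe sets, where the other arrays lay between 6.15 and 6.31, and the 90 genes had a median of 0.15 in that comparison beside 0.34 over all probe sets. In gcn2 all 9 fraction medians were below 0, between -0.65 and -0.38.

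**Figure D1:**
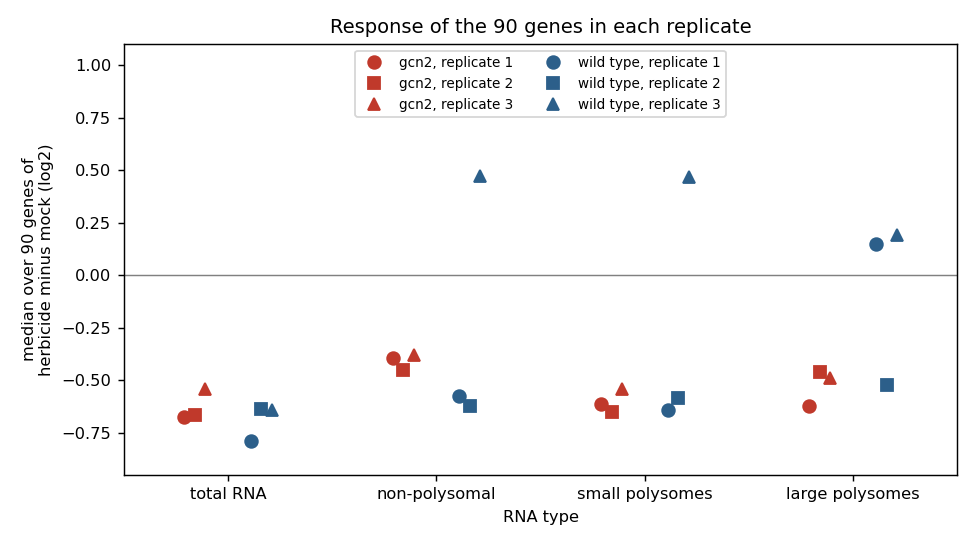
Median over the 90 genes of herbicide minus mock (log2, vertical axis) for each replicate number, by RNA type; gcn2 in red and wild type in blue, with 1 symbol shape per replicate. The gcn2 points lie between -0.67 and -0.38, and the wild-type points of replicate 3 lie at 0.47, 0.47 and 0.19 in the 3 fractions.

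Replicates of a group correlated between 0.929 and 0.9962 over all probe sets. Among markers, the leaf gene RCA (Rubisco activase) was at 12.96 to 13.45 in total RNA. Of 8 root marker genes, 5 were measured: the root hair expansins EXPA7 and EXPA18 and the peroxidases AT5G17820 and AT3G49960 were at 2.44 to 3.62, and PYK10, a beta-glucosidase found mainly in roots, was at 9.98 to 10.99. The PYK10 fraction mean differed by 0.01 ± 0.19 (SE) between herbicide and mock in gcn2. GCN2 was not the single named gene of any probe set in the annotation used, so the genotype labels were not checked with it.

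The fraction arrays, which had no part in the choice, were compared gradient by gradient. For each gradient the fraction mean is the mean log2 value of its non-polysomal, small polysome and large polysome arrays. In gcn2 the fraction mean was lower after herbicide than after mock for 89 of the 90 genes, against 57.0% of all probe sets. The median difference was -0.51, against -0.04 over all probe sets. The 3 herbicide gradients lay below the 3 mock gradients for 61 of the 90 genes, against 13.2% of all probe sets. In the limma fit with Benjamini-Hochberg adjustment over all probe sets (threshold 0.05), 18 of 90 fell and none rose, where 1.95% of all probe sets fell and 4.8% rose. The fit pools the spread of all 12 gradients. By the rule the 90 genes had mock total RNA means of at least 6. The lower quartile of all probe sets was 3.54 in gcn2 and 3.53 in wild-type mock total RNA. Shares over all probe sets, here and below, thus include dim probe sets and are not matched for level. Without the wild-type gradients of replicate 3 the number of falling genes was 41 of 90, against 3.22% of all probe sets, and it included all 18. It was 28 without the wild-type herbicide gradient of replicate 3 alone. With single gcn2 gradients left out it was 10, 7 and 9 without herbicide replicates 1, 2 and 3, and 4, 5 and 19 without mock replicates 1, 2 and 3. Shares of all probe sets are not given for fits without a single gradient. Those counts therefore do not separate a change in the 90 genes from one in all probe sets. Replicate numbers were taken to pair the gcn2 gradients, from the data and not from the labels, since same-numbered gradients deviated together. A fit of the 6 gcn2 gradients alone, with the replicate number as a block, was added after seeing the data. It leaves 2 residual degrees of freedom. In it 78 of 90 genes fell, against 13.0% of all probe sets, and they included the 18 and the 41. The 12 others were AT5G01870, AT5G48480, psbD, AT2G33640, AT5G05960, AT1G29980, AT2G25920, AT5G25770, AT3G62930, AT3G17680, AT2G03980 and AT1G67910. A block shared by all 12 gradients gave 29 of 90, against 5.05%. Unless stated, values below are fraction means on the log2 scale with SE, and adjusted p from limma with all gradients and no block, with n = 3 gradients per group.

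The largest fall was that of AT1G62510. Its gcn2 fraction means were 7.63, 7.35 and 7.37 with herbicide, against 9.22, 9.16 and 9.65 with mock. The groups were more than 1 log2 unit apart at their nearest points. The difference was -1.89 ± 0.22, which is 0.27 of the mock level (adjusted p = 0.00012). In wild type its fraction means were 8.48, 8.52 and 9.05 with herbicide, against 8.78, 9.02 and 8.19 with mock, so the groups overlapped through replicate 3. Without replicate 3 the wild-type difference was -0.40 ± 0.19 (adjusted p = 0.5). The second-largest fall was that of AT5G57785, a protein of unknown function. It had 8.80, 9.0 and 9.26 in gcn2 with herbicide, against 10.30, 10.82 and 10.78 with mock. All herbicide gradients lay below all mock gradients, and the difference was -1.61 ± 0.31 (adjusted p = 0.0054).

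Both members with a role in translation fell in gcn2. AT5G63190 carries MA3 domains, the fold through which proteins of this family bind the helicase eIF4A, and had 8.81, 8.97 and 8.72 in gcn2 with herbicide, against 10.04, 9.80 and 9.62 with mock (-0.99 ± 0.24, adjusted p = 0.02). AT5G12110 is a subunit of the elongation factor eEF1B, which reloads eEF1A with GTP. It had 7.46, 7.43 and 7.39 with herbicide, against 8.13, 8.07 and 8.17 with mock (-0.69 ± 0.17, adjusted p = 0.023). For both genes the gcn2 groups did not overlap, and the spread within a group was small beside the difference.

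Of the 4 chaperones and folding helpers, 1 fell, and all 4 did with the gcn2 block. Of all 90 genes, 78 fell with that block, so such counts, here and below, are not results about a role. ATERDJ3B, a J-domain co-chaperone of the endoplasmic reticulum, had 8.72, 8.65 and 8.72 in gcn2 with herbicide, against 9.63, 9.49 and 9.88 with mock. The groups did not overlap, and the difference was -0.97 ± 0.25 (adjusted p = 0.032). The cytosolic Hsp70 genes Hsp70-2 (-0.46 ± 0.35, adjusted p = 0.53) and AT3G09440 (-0.47 ± 0.39, adjusted p = 0.56) did not pass the test. The peptidyl-prolyl isomerase AT5G48570, also known as ROF2, had 8.00, 7.73 and 7.64 with herbicide, against 8.14, 8.01 and 9.25 with mock. Its mock gradient of replicate 3 stood far above the rest, and the difference of -0.68 ± 0.30 did not pass (adjusted p = 0.22).

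Of 5 genes, made up of the pirin PRN and enzymes of amino acid, redox, sugar phosphate and nucleotide metabolism, 3 fell. All 5 did with the gcn2 block. MSRB5, a methionine sulfoxide reductase that repairs oxidised methionine, had 8.70, 8.52 and 8.80 in gcn2 with herbicide, against 9.40, 9.34 and 9.41 with mock (-0.70 ± 0.18, adjusted p = 0.029). MGL, the methionine gamma-lyase that breaks down methionine and feeds isoleucine synthesis, had 6.87, 6.81 and 6.51 with herbicide, against 7.31, 7.17 and 7.39 with mock (-0.56 ± 0.16, adjusted p = 0.046). AT5G64380, of the fructose-bisphosphatase family, differed by -0.72 ± 0.16 (adjusted p = 0.015). In these 3 genes every herbicide gradient of gcn2 was below every mock gradient. The CTP synthase AT1G30820 (-0.48 ± 0.23, adjusted p = 0.26) and PRN (-0.42 ± 0.29, adjusted p = 0.48) did not pass. AT1G32780, an alcohol dehydrogenase-like protein, fell as well (-0.78 ± 0.21, adjusted p = 0.037), and so did AT1G15370, a SNARE-like protein (-0.95 ± 0.19, adjusted p = 0.0063).

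Of 6 genes of mitosis and microtubules, 1 fell with all gradients and 3 without the wild-type gradients of replicate 3. All 6 did with the gcn2 block, as did 78 of all 90 genes. UBC20, a ubiquitin-conjugating enzyme of the class that serves mitotic cyclin breakdown, had 8.79, 8.82 and 8.66 in gcn2 with herbicide, against 9.56, 9.47 and 9.25 with mock (-0.68 ± 0.18, adjusted p = 0.033). The groups did not overlap. The BUB3-like AT1G69400, of the spindle checkpoint family (-0.56 ± 0.15, adjusted p = 0.041), and the katanin p80-like AT5G08390, of a microtubule-severing complex (-0.45 ± 0.12, adjusted p = 0.042), passed without wild-type replicate 3, and the adjusted p with all gradients was 0.063 and 0.09. AUR3, an Aurora kinase of dividing cells, had 5.63, 5.81 and 5.52 with herbicide, against 6.22, 6.35 and 5.82 with mock. The groups nearly touched, and the difference of -0.48 ± 0.21 did not pass (adjusted p = 0.22). The kinesins AT2G36200 (-0.44 ± 0.17) and ZCF125 (-0.46 ± 0.17) had adjusted p of 0.17 and 0.14.

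Of 4 protein kinases, 2 fell: AT3G01490 (-0.63 ± 0.14, adjusted p = 0.014) and AT2G36350 (-0.58 ± 0.15, adjusted p = 0.037). Of 6 cell wall and secreted proteins, 1 fell, the GDSL lipase AT5G18430 (-0.57 ± 0.15, adjusted p = 0.032). The extensin-like AT2G15880 had 7.11, 6.77 and 6.93 with herbicide, against 7.74, 7.47 and 7.59 with mock, groups that did not overlap. Its difference of -0.67 did not pass with all gradients (adjusted p = 0.14) and passed without wild-type replicate 3 (adjusted p = 0.012). Of 4 genes of the ubiquitin system, 1 fell, the F-box protein AT1G13570 (-0.62 ± 0.17, adjusted p = 0.044). Neither of the transcription regulators passed: ALC, a basic helix-loop-helix factor of fruit opening, was at -0.44 ± 0.15 and the CXC-domain protein SOL1 at -0.57 ± 0.17, with adjusted p of 0.1 and 0.063. Among 50 genes placed in no group, 6 fell. With the gcn2 block all 4 kinases, 5 of the 6 wall and secreted proteins, all 4 genes of the ubiquitin system, both transcription regulators and 42 of the 50 fell.

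**Figure D2:**
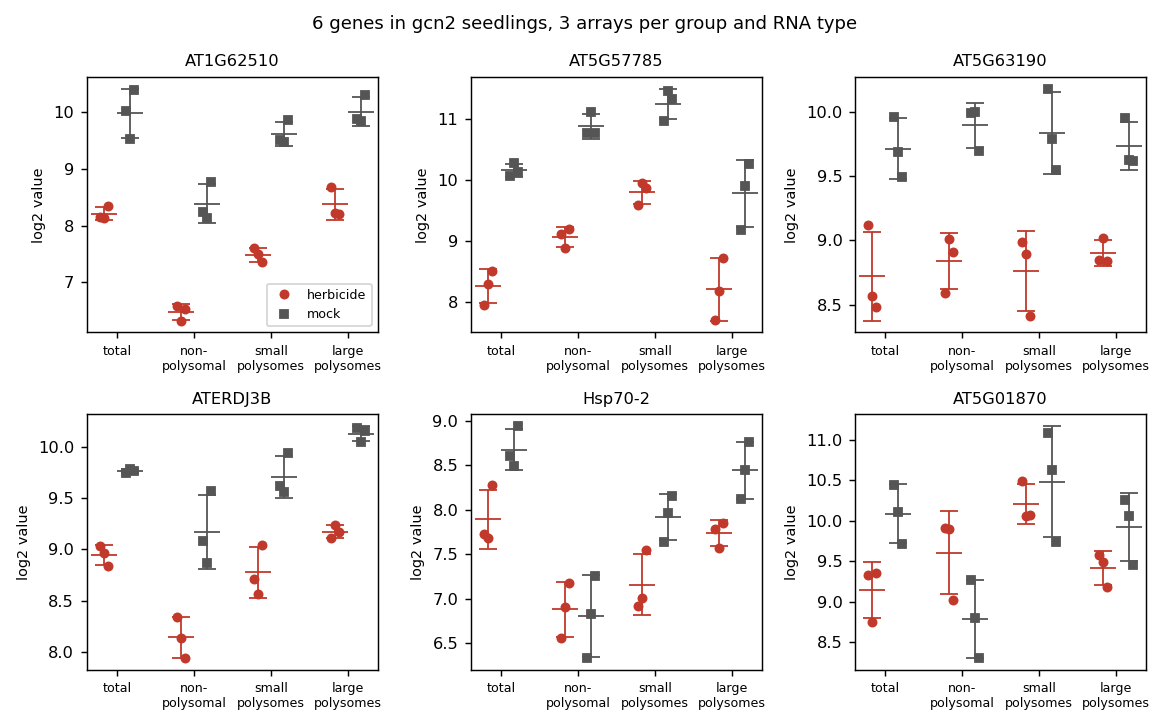
Log2 values of 6 genes in gcn2 (vertical axes, scaled per panel) by RNA type, with herbicide in red and mock in grey; points are the 3 arrays of a group, and bars are the mean ± SD. Herbicide and mock do not overlap in any RNA type for AT1G62510, AT5G57785, AT5G63190 and ATERDJ3B, whereas they overlap in non-polysomal RNA for Hsp70-2 and for AT5G01870, whose mean there is higher with herbicide.

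Within gcn2 gradients the differences were seen in each fraction. Over the 90 genes the median herbicide minus mock difference was -0.44 for non-polysomal RNA, -0.60 for small polysomes and -0.52 for large polysomes, against -0.02, -0.04 and -0.06 over all probe sets. The difference was below 0 in all 3 fractions for 83 genes and in 2 of them for the other 7. Over all probe sets 52.9% (non-polysomal), 55.5% (small polysomes) and 58.5% (large polysomes) were below 0. No share is given for the 3 fractions together. All herbicide arrays lay below all mock arrays for 46 genes (12.6% of all probe sets), 56 (12.4%) and 47 (9.38%) in the same order of fractions, and in all 3 fractions for 26 (2.04%). In limma 8 genes fell in the non-polysomal fraction (1.63% of all probe sets), 18 in small polysomes (1.76%) and 1 in large polysomes (0.044%). None rose, where 3.99%, 4.15% and 1.72% of all probe sets rose. Without wild-type replicate 3 the counts of falling genes were 19 (2.61%), 29 (2.4%) and 8 (0.277%). With the replicate block on the gcn2 gradients they were 24 (3.62%), 63 (9.09%) and 36 (1.98%), and with a block shared by all 12 gradients 8 (2.08%), 28 (4.45%) and 0 (0.044%). Single gradients moved the counts made with all gradients, and shares of all probe sets are again not given for those fits. The non-polysomal count was 5 without gcn2 herbicide replicate 2, 5, 4 and 5 without gcn2 mock replicates 1, 2 and 3, and 13 without wild-type mock replicate 3. The small polysome count was 6, 5 and 9 without gcn2 herbicide replicates 1, 2 and 3, and 8 and 4 without gcn2 mock replicates 1 and 2. The large polysome gene was AT1G62510, with 8.69, 8.23 and 8.21 in gcn2 with herbicide, against 9.88, 9.84 and 10.31 with mock (-1.63 ± 0.39, adjusted p = 0.047). That count was 0 when any single gcn2 gradient, or the wild-type herbicide gradient of replicate 1 or 2, was left out, and 6 without wild-type mock replicate 3.

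Several genes passed the threshold in 1 fraction and missed it in the others with all gradients, which does not show that the fractions differed. With the gcn2 block AT3G11930 and AT2G38820 passed in all 3 fractions, and AT4G30450 in small and large polysomes. AT3G11930, a universal stress protein, fell in small polysomes, with 10.22, 9.92 and 9.22 in gcn2 with herbicide, against 11.31, 10.90 and 10.38 with mock (-1.07 ± 0.26, adjusted p = 0.02). The groups did not overlap, but the replicates of each spread over more than the gap between them. AT2G38820, a protein of the DUF506 family, fell in non-polysomal RNA, with 9.43, 8.95 and 8.90 with herbicide, against 10.13, 9.89 and 10.02 with mock (-0.92 ± 0.26, adjusted p = 0.048). AT4G30450, a glycine-rich protein, fell in small polysomes, with 9.40, 9.24 and 9.10 with herbicide, against 10.36, 10.15 and 9.98 with mock (-0.91 ± 0.25, adjusted p = 0.041). In non-polysomal RNA it had 9.16, 8.90 and 8.20 with herbicide, against 9.18, 8.59 and 8.83 with mock, groups that overlapped.

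**Figure D3:**
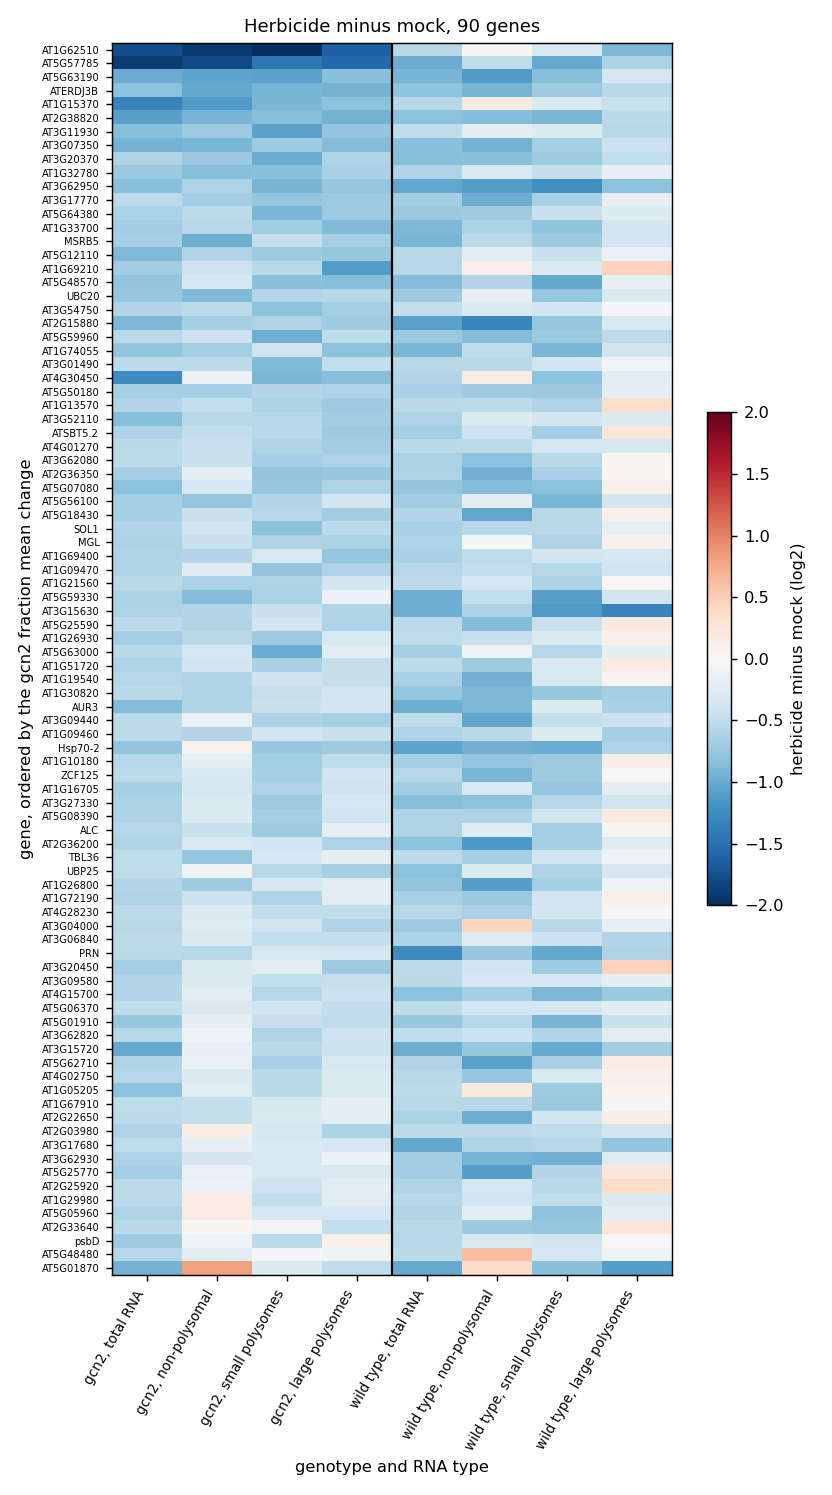
Herbicide minus mock (log2, colour scale from -2 in blue to 2 in red) for each of the 90 genes (rows, ordered by the gcn2 fraction mean) in 4 RNA types of gcn2 and of wild type (columns); the total RNA columns chose the genes, and the wild-type fraction columns use replicates 1 and 2. The gcn2 small polysome column is below 0 for all 90 genes (55.5% of all probe sets), as is the wild-type one (52.5%). The wild-type large polysome column is below 0 for 64 genes (32.6% of all probe sets).

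Polysome loading of a gradient was its average of small and large polysome values after subtraction of its non-polysomal value. In gcn2 its herbicide minus mock difference had a median of -0.18 over the 90 genes and of -0.02 over all probe sets. It was below 0 for 58 of 90 (64.4%), against 52.5% of all probe sets. The difference was lower in small polysomes than in non-polysomal RNA for 61 of 90. No share over all probe sets is given for that count, so it is not read as a trait of the 90 genes. No gene passed the limma test (0.022% of all probe sets fell and 0.0264% rose). An unadjusted p under 0.05 was found for 10 of the 90 genes, against 1834 of 22746 probe sets. Without wild-type replicate 3, 1 gene fell, against 0.281%. It was AT5G01870, a lipid-transfer-like protein, of a family that binds lipids outside the cell. Its loading was 0.12, -0.12 and 0.61 in gcn2 with herbicide, against 1.41, 1.54 and 1.30 with mock. The groups lay far apart, and the difference was -1.21, with adjusted p = 0.33 with all gradients and 0.03 without wild-type replicate 3.

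The differences of AT5G01870 had opposite signs in the fractions. In non-polysomal RNA it had 9.91, 9.89 and 9.02 in gcn2 with herbicide, against 9.26, 8.80 and 8.30 with mock, a difference of 0.82 ± 0.29 (adjusted p = 0.12). In large polysomes it had 9.58, 9.49 and 9.18 with herbicide, against 10.26, 10.06 and 9.46 with mock, a difference of -0.51 ± 0.38 (adjusted p = 0.89). Neither passed alone with all gradients, and groups overlapped in both fractions. With the gcn2 block the non-polysomal difference passed as the 1 rise among the 90 (adjusted p = 0.015), and the large polysome difference did not (adjusted p = 0.095). In wild type without replicate 3 its loading difference was -1.36 ± 0.27 (adjusted p = 0.064). Its fraction mean in gcn2 differed by 0.01 ± 0.26, where the total RNA difference was -0.94.

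Hsp70-2 had a loading of 0.79, 0.39 and 0.53 in gcn2 with herbicide, against 1.55, 1.38 and 1.21 with mock, groups that did not overlap. The difference was -0.81 ± 0.21 (adjusted p = 0.23, and 0.088 without wild-type replicate 3). In non-polysomal RNA the gene differed by 0.08 ± 0.33 and in small polysomes by -0.76 ± 0.30, neither past the threshold with all gradients. With the gcn2 block the small polysome difference passed (adjusted p = 0.0035), and loading did not (adjusted p = 0.18). In wild type without replicate 3 its loading differed by 0.15 ± 0.23. The GDSL lipase AT2G03980 had a gcn2 loading of -0.47, -0.22 and -0.44 with herbicide, against 0.43, 0.24 and 0.15 with mock (-0.65 ± 0.20, adjusted p = 0.33). The highest loading differences were those of TBL36, of a family of cell wall acetyltransferases (0.51 ± 0.22), the lipid-transfer-like AT5G59330 (0.49 ± 0.24) and the RING-domain protein AT1G26800 (0.43 ± 0.22). Their adjusted p were 0.56, 0.62 and 0.66.

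**Figure D4:**
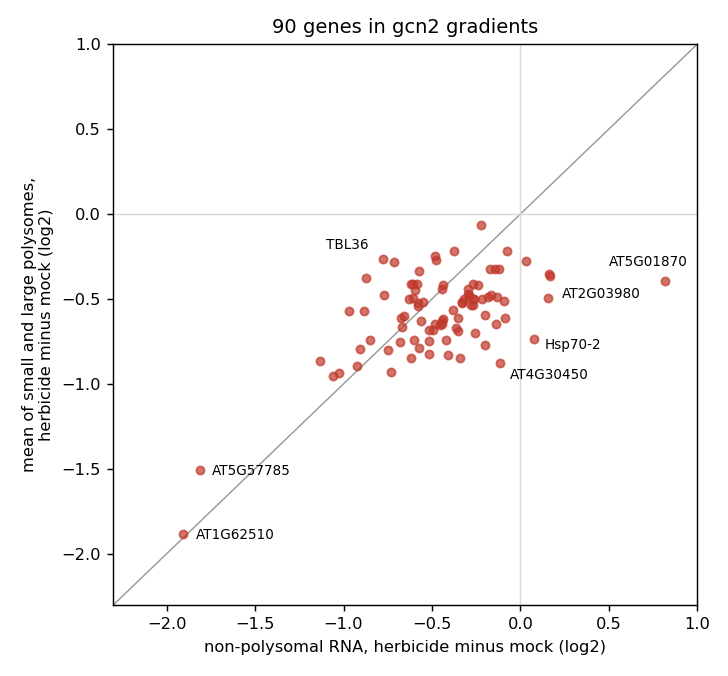
Herbicide minus mock in gcn2 for the 90 genes, in non-polysomal RNA (horizontal axis, log2) and in polysomes, as the mean of small and large polysomes (vertical axis, log2); the diagonal marks equal differences. Points below the diagonal had a lower loading after herbicide, 58 of 90 (64.4%, against 52.5% of all probe sets), and AT5G01870 lies farthest from it.

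The genes that differed least in the gcn2 fraction mean were AT5G01870 (0.01), AT5G48480 (-0.12), psbD (-0.17), AT2G33640 (-0.17) and AT5G05960 (-0.18). AT5G48480, a glyoxalase-like protein, had 8.32, 8.39 and 8.20 in gcn2 with herbicide, against 8.38, 8.41 and 8.47 with mock. The values of both groups ran into each other (-0.12 ± 0.15, adjusted p = 0.74), whereas the total RNA difference was -0.58. The plastid gene psbD encodes the D2 protein of photosystem II. It had 9.98, 8.47 and 8.08 in gcn2 with herbicide, against 10.45, 8.54 and 8.04 with mock. Its replicates spread over more than 1 log2 unit within each group (SE 0.59), and the difference of -0.17 lay well within that spread (adjusted p = 0.92). AT2G33640, a palmitoyltransferase-like protein, and AT5G05960, a lipid-transfer-like protein, had adjusted p of 0.61 and 0.74.

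In wild type with all gradients no gene passed the limma test in the fraction mean, the 3 fractions or loading. The counts at an unadjusted p under 0.05 were 3 in the fraction mean, 1 in each of the 3 fractions and 2 in loading. Over all 22746 probe sets they were 602 (fraction mean), 405 (non-polysomal), 215 (small polysomes), 1536 (large polysomes) and 1188 (loading). With adjustment 0% of all probe sets were called in either direction. The median fraction mean difference was -0.17. Over the fractions it was -0.22 (non-polysomal), -0.28 (small polysomes) and -0.11 (large polysomes). Without the gradients of replicate 3 it was -0.44, and the fractions had -0.57 (non-polysomal), -0.61 (small polysomes) and -0.22 (large polysomes). In replicates 1 and 2 both herbicide fraction means lay below both mock fraction means for 75 of 90 genes, against 18.2% of all probe sets. Without replicate 3, limma called 4 genes lower in the fraction mean (0.0835% of all probe sets) and 13 in the non-polysomal fraction (0.756%). It called 1 lower in small polysomes (0.0615%) and none in large polysomes (0%). In large polysomes 14 were at an unadjusted p under 0.05, all lower, against 2418 of 22746 probe sets, 363 of them lower. No gene passed in loading (0.0044% of all probe sets). In loading 23 were at an unadjusted p under 0.05, 7 of them lower, against 4515 of 22746 probe sets, 1321 of them lower. The large polysome comparison includes the mock array of replicate 1 with the low median. With each array centred on its median, again without replicate 3, the large polysome median was -0.53 and 41 genes had an unadjusted p under 0.05, none past the threshold (0.0176% of all probe sets lower). The wild-type loading median was 0.15 without centring and -0.1 with it. With centring some genes did pass in loading, and more than 4 fell in the fraction mean. Those counts are given below with the other processing alternatives.

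The 4 genes that fell in wild type without replicate 3 also fell in gcn2 in the same fit. The CC-type glutaredoxin AT3G62950 had wild-type fraction means of 6.56, 6.67 and 7.42 with herbicide, against 7.46, 7.87 and 6.59 with mock. In replicate 3 the herbicide value was the higher one. Without them the difference was -0.77 ± 0.15 in gcn2 (adjusted p = 0.006) and -1.05 ± 0.18 in wild type (adjusted p = 0.015). A second CC-type glutaredoxin, AT4G15700, was at -0.41 ± 0.11 in gcn2 (adjusted p = 0.043) and -0.77 ± 0.14 in wild type (adjusted p = 0.019). CC-type glutaredoxins are plant-specific redox proteins that act with TGA transcription factors, and this one lies beside close copies that were left out of the set, so that its probe set could also detect their RNA. The third, AT3G62930, did not pass in either genotype (-0.27 ± 0.20 in gcn2 and -0.72 ± 0.24 in wild type without replicate 3).

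AT2G38820 was at -0.91 ± 0.13 in gcn2 (adjusted p = 0.00059) and -0.77 ± 0.16 in wild type (adjusted p = 0.038) without wild-type replicate 3. AT3G15630, for which no function is given here, was at -0.54 ± 0.15 in gcn2 (adjusted p = 0.042) and -1.03 ± 0.19 in wild type (adjusted p = 0.018). With all gradients none of the 4 passed in the gcn2 fraction mean either, at adjusted p of 0.083 to 0.43. The 13 genes called in wild-type non-polysomal RNA without replicate 3 included AT2G15880 (-1.33 ± 0.19, adjusted p = 0.0044), the kinesin AT2G36200 (-1.16 ± 0.20, adjusted p = 0.013) and AUR3 (-0.90 ± 0.19, adjusted p = 0.032).

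The difference between the genotypes' responses was tested as an interaction, the gcn2 response minus the wild-type response. In the fraction mean 1 gene passed, AT1G62510, at -1.91 ± 0.31 (adjusted p = 0.0095), where 0.0747% of all probe sets were lower and 0.805% higher. It was at -1.49 without wild-type replicate 3 (adjusted p = 0.015, 0.022% lower and 0.699% higher). Without wild-type mock replicate 2 the count was 2. AT1G62510 also passed in non-polysomal RNA (-2.01 ± 0.27, adjusted p = 0.0017, and -1.94 ± 0.30, adjusted p = 0.012, without wild-type replicate 3) and in small polysomes (-2.16 ± 0.30, adjusted p = 0.0034, with 0.0264% of all probe sets lower and 0.739% higher). The small polysome interaction was -1.81 without wild-type replicate 3 (adjusted p = 0.014, 0.00879% lower and 0.277% higher). It did not pass in large polysomes, at -1.57 ± 0.55 with all gradients (adjusted p = 0.81) and -0.73 ± 0.34 without wild-type replicate 3 (adjusted p = 0.82). In non-polysomal RNA it had 6.59, 6.32 and 6.54 in gcn2 with herbicide, against 8.25, 8.14 and 8.78 in gcn2 with mock. In wild type it had 8.02, 8.27 and 8.18 with herbicide, against 8.11, 8.12 and 7.94 with mock, groups that overlapped with no replicate standing apart. A second gene, AT5G57785, passed in non-polysomal RNA, where 0.106% of all probe sets were called lower and 0.95% higher (-1.64 ± 0.35, adjusted p = 0.03). Its adjusted p was 0.074 without wild-type replicate 3, where its difference was -1.30 and the count was 1 (0.418% lower and 0.703% higher). The count was also 1 when any single gradient other than gcn2 herbicide replicate 3, wild-type herbicide replicate 1 or wild-type mock replicate 2 was left out. No gene passed in large polysomes (0.0044% lower and 0.0572% higher) or in loading (0% either way). There 11 and 4 genes had an unadjusted p under 0.05, against 1165 and 1419 of all 22746 probe sets. No gene passed either without wild-type replicate 3 in large polysomes (0.0044% lower and 0.0615% higher) or in loading (0.0044% lower and 0% higher). The unadjusted counts were then 6 and 22 genes, against 1229 and 3659 of all 22746 probe sets. The rule required a fall in both genotypes of total RNA, so that genes that fell in only 1 genotype were not among those tested here.

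**Figure D5:**
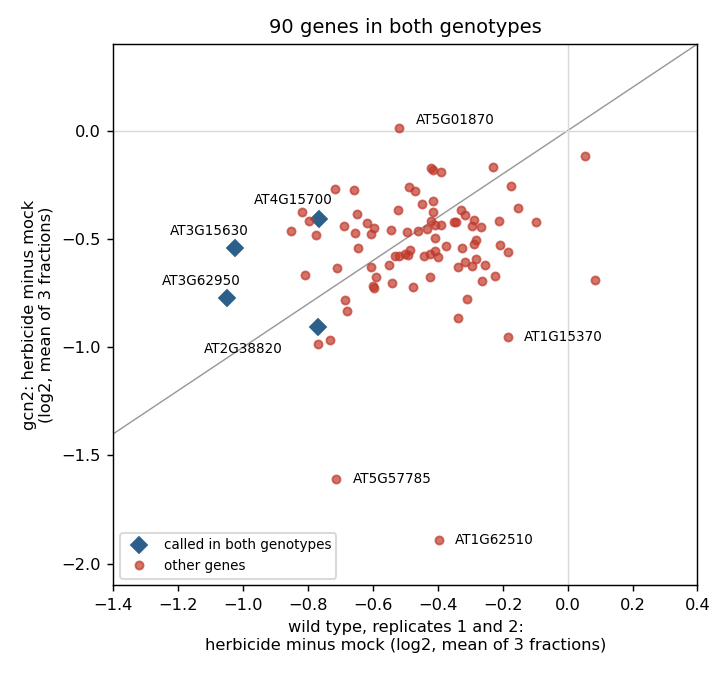
Herbicide minus mock in the fraction mean (log2) of the 90 genes in gcn2 (vertical axis, 3 replicates) and in wild type (horizontal axis, replicates 1 and 2); the diagonal marks equal differences and blue diamonds mark the 4 genes called lower in both genotypes without wild-type replicate 3. AT1G62510 and AT5G57785 lie farthest below the diagonal.

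Levels in the genotypes were also compared within each treatment. With mock, gcn2 did not differ from wild type in the fraction mean for any of the 90 genes at the threshold (0.022% of all probe sets were lower and 0.0484% higher), with 6 at an unadjusted p under 0.05. Without wild-type replicate 3 none differed either (0.0264% lower and 0.0396% higher), again with 6 at an unadjusted p under 0.05. Over all 22746 probe sets the unadjusted counts were 1089 with all gradients and 979 without wild-type replicate 3. With herbicide, 4 genes were lower in gcn2 (1.66% of all probe sets, with 2.62% higher): AT1G62510 (-1.23 ± 0.22, adjusted p = 0.0052), AT1G15370 (-0.79 ± 0.19, adjusted p = 0.031), UBC20 (-0.72 ± 0.18, adjusted p = 0.035) and AT3G54750 (-0.75 ± 0.14, adjusted p = 0.0072). Without wild-type replicate 3 in both arms, 2 were lower, AT1G62510 and AT3G54750 (1.17% of all probe sets), and MSRB5 was higher in gcn2 (0.57 ± 0.14, adjusted p = 0.047, 2.17% of all probe sets). The count of lower genes was 2 without gcn2 herbicide replicate 1, gcn2 herbicide replicate 2 or wild-type herbicide replicate 3. The MSRB5 fraction mean was 8.70, 8.52 and 8.80 in gcn2 with herbicide, against 8.14, 8.07 and 8.78 in wild type with herbicide, so that only wild-type replicate 3 reached the gcn2 values.

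The place of the 90 genes in the gradient was also read with mock alone. Their loading was taken here after each array was centred on its own median, unlike in the loading tests with all gradients, and averaged over both genotypes. It had a median of 0.16, against 0.12 over all probe sets, and a range of -1.24 to 1.42. It was above 0 for 58 of 90 (64.4%), against 63.7% of all probe sets. Without the wild-type mock gradient of replicate 3 the median was 0.15, against 0.1, and it was above 0 for 54, against 61.7% of all probe sets. The lowest loading was that of AT2G22650, an oxidoreductase-like protein, at -0.98, -1.14 and -1.07 in gcn2 and -1.97, -1.60 and -0.65 in wild type. AT2G38820 (mean -1.03, and -0.87 without wild-type replicate 3) and AT2G15880 (mean -1.003, and -1.15 without it) followed with all gradients. The highest was that of AT5G01870, at 1.45, 1.59 and 1.35 in gcn2 and 2.28, 1.52 and 0.32 in wild type. In both of these genes the gcn2 gradients lay close together, and wild-type replicate 3 was nearest to 0. AT5G48570 (mean 1.28, and 1.199 without wild-type replicate 3) and AT1G62510 (mean 1.28, and 1.45 without it) were next highest with all gradients.

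Gene lists of neighbouring processes were read beside the 90 genes, and none of the 90 is on any of them. Only probe sets with the name of 1 gene could be members. Such probe sets numbered 7 for 23 listed genes of carbon starvation and darkness, 4 for 34 of auxin response and 1 for 26 of the circadian clock. They numbered 4 for 19 of mitosis, 3 for 15 of light harvesting and 3 for 10 of aliphatic glucosinolates. The absence of the 90 from the lists therefore says little about these processes. In the gcn2 fraction mean, 1 of 7 measured genes induced by carbon starvation and darkness fell, AKINBETA1, a subunit of the energy-sensing SnRK1 kinase (-0.75 ± 0.20, adjusted p = 0.04). The median of that list was -0.44. Of 4 measured auxin response genes none fell and 2 rose: GH3.3, which joins auxin to amino acids (1.45 ± 0.16, adjusted p = 9.2e-05), and the repressor IAA29 (1.05 ± 0.21, adjusted p = 0.0071). None passed among 4 probe sets of the mitotic cell cycle (median -0.25) and 3 genes of the light-harvesting complex (median -0.15). The same held for 3 of aliphatic glucosinolate synthesis (median 0.05), 1 of the circadian clock, 5 root markers (median 0.01) and 1 leaf marker. The mitotic probe sets include a pair for the gene FU, with differences of -0.54 and -0.20 at gcn2 mock means of 9.28 and 2.67. No gene of the nitrogen and sulfate assimilation list was measured under a single name. In wild type without replicate 3 no gene of these lists passed.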

How the data were processed

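RNA of 48 ATH1 arrays was compared. The values are log2 intensities as deposited by the authors, and RMA, the affy package and MAS5 are named per the submitters' processing notes, with versions not given in the sources used here. Probe sets were named through the platform table and RefSeq TAIR10.1: 13513 carried 1 gene and 503 several, 8730 had no name in these tables, and 64 control probe sets were left out. No further filter or normalization was applied in the main fits, whereas the differences between fractions with mock used arrays centred on their medians. Fraction means, single fractions and polysome loading of 12 gradients were fitted with limma 3.58.1 in R 4.3.3 (lmFit, eBayes), with 1 mean per group and 1 shared spread, and Benjamini-Hochberg adjustment over 22746 probe sets (threshold 0.05). Arrays carry no counts, so their number limits the precision. In data simulated with the spread found without wild-type replicate 3, 15% of differences of -0.5 and 78% of -1 were recovered for the gcn2 fraction mean. The spread with those gradients kept was not simulated, so these shares do not describe the main fit.

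Replicate numbers were shared by the groups. Deviations from group means of same-numbered gcn2 gradients correlated at 0.51 to 0.602 in the fraction mean, 0.227 to 0.396 in non-polysomal RNA, 0.473 to 0.548 in small polysomes and 0.251 to 0.467 in large polysomes, so the numbers were taken to pair gcn2 gradients there, from the data and not from the labels. In loading the lowest was 0.096. Over all 4 groups 16 of 18 pairs exceeded 0.1 in the fraction mean (lowest -0.237). The blocked fit of the 6 gcn2 gradients was added after seeing the data and leaves 2 residual degrees of freedom.

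The genes, gene lists and tests were chosen with earlier results of these data known, and the role groups were made after the values were seen. Named genes were the 10 largest falls past the threshold without overlap, the 5 highest differences, called interactions, the 3 smallest adjusted p of the loading response per direction, the extremes of mock loading, genes at the limits of the rule, and called genes of the lists. Other members named here stand for their role groups and were chosen after their values were seen. A rule by RefSeq product family could not be applied, as the table holds no product names. Gene lists covered carbon starvation, auxin, the circadian clock, light harvesting, mitosis, nitrogen and sulfate assimilation, aliphatic glucosinolates, and root and leaf markers. Alternatives were a replicate block over all gradients or over gcn2 alone, array centring, quantile normalization, leaving out dim probe sets, array weights, single-genotype fits, and leaving out wild-type replicate 3 or each gradient in turn.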

Additional observations from a re-analysis of the deposited data

Results flagged for a closer look

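In 4 tests the response to herbicide differed between the genotypes at the interaction threshold of limma. For AT1G62510 the gcn2 response minus the wild-type response was -1.91 in the fraction mean, -2.01 in non-polysomal RNA and -2.16 in small polysomes, and it passed in all 3 without wild-type replicate 3 as well. For AT5G57785 it was -1.64 in non-polysomal RNA (adjusted p from limma = 0.03). That gene did not pass without wild-type replicate 3 (adjusted p from limma = 0.074), and the count of genes that passed was 1 under quantile normalization and in most fits that left out a single gradient. In each of these measures the 3 gcn2 herbicide gradients lay below the 3 gcn2 mock gradients. That describes the gcn2 response alone and not its difference from wild type. No group of 3 was tested for outlying samples.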

How the results depend on the processing

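Counts of the 90 genes past the limma threshold depended on which gradients set the spread. Shares of all probe sets called the same way stand in parentheses. Without wild-type replicate 3 in both arms, genes that fell in gcn2 numbered 41 for the fraction mean (3.22%), 19 for non-polysomal RNA (2.61%), 29 for small polysomes (2.4%), 8 for large polysomes (0.277%) and 1 for loading (0.281%), and in wild type 4 (0.0835%), 13 (0.756%) and 1 (0.0615%) in the first 3 of these. With that change and array centring (an alternative chosen after seeing the data) the gcn2 counts were 41 (4.04%), 19 (2.91%), 28 (2.4%), 15 (0.646%) and 1 (0.273%). The wild-type counts were then 7 for the fraction mean (0.11%), 8 for non-polysomal RNA (0.484%), 1 for small polysomes (0.0615%) and 4 for loading (2.62%), and 2 genes were lower in gcn2 with herbicide (1.83%). Array weights gave 46 (6.03%), 21 (5.35%), 42 (5.56%), 23 (1.61%) and 2 (0.594%) in gcn2 and 9 lower in gcn2 with herbicide (4.3%). Fits of the 6 gcn2 gradients alone gave 29 in the fraction mean (2.05%) and 8 in large polysomes (0.308%). Centring and quantile normalization each gave 0 in large polysomes (0.0967% and 0.101%), and the non-polysomal interaction count was 1 under quantile normalization (0.0967%) and without wild-type replicate 3 (0.418%).

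With the replicate block over all 12 gradients the gcn2 counts were 29 in the fraction mean (5.05%), 28 in small polysomes (4.45%) and 0 in large polysomes (0.044%). With the block in a fit of the gcn2 gradients alone they were 78 for the fraction mean (13.0%), 24 for non-polysomal RNA (3.62%), 63 for small polysomes (9.09%) and 36 for large polysomes (1.98%). The block moved no other count by over 1.5 times.

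With each gradient left out in turn, gcn2 counts ran from 4 to 28 for the fraction mean, 4 to 13 for non-polysomal RNA, 4 to 25 for small polysomes, 0 to 6 for large polysomes and 0 to 0 for loading. Shares of all probe sets are not given for any fit with a single gradient left out, here or above. Wild-type counts stayed at 0. Interaction counts ran from 1 to 2 in the fraction mean and 1 to 3 in non-polysomal RNA, and genotype counts from 0 to 1 with mock and from 2 to 6 with herbicide. The fraction-mean count was 28 without wild-type herbicide replicate 3, and the large polysome count was 6, and the non-polysomal count 13, without wild-type mock replicate 3. The sign of the gcn2 fraction mean turned for psbD without herbicide replicate 2 (0.017), herbicide replicate 3 (0.211) or mock replicate 1 (0.551), with a range of -0.739 to 0.551 over single left-out gradients. It turned for AT5G01870 under centring (-0.009), array weights (-0.004), the added alternative (-0.009), and without herbicide replicate 1 (-0.114), herbicide replicate 2 (-0.026) or mock replicate 3 (-0.273), with a range of -0.273 to 0.245. Of the other single-gene values, 500 kept direction and side of the threshold, 21 gained a call and 37 lost one. The causes were not tested.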

Other observations

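For the differences between fractions with mock, each array was first centred on its own median. The median of small polysomes minus non-polysomal RNA over the 90 genes was 0.30, 0.16 and 0.08 in gcn2 replicates 1, 2 and 3. Over all probe sets it was 0.10, 0.08 and 0.005. In wild-type gradients it was 0.21, 0.25 and 0.13, beside 0.11, 0.06 and 0.08, where replicate 3 is the gradient whose fractions went against their labels. The median of large minus small polysomes over the 90 genes was -0.07, -0.17 and -0.07 in gcn2, beside 0.001, -0.002 and 0.04 over all probe sets. In wild type it was -0.22 and -0.03 in replicates 1 and 2, beside 0.24 and 0.06, and 0.36 in replicate 3, beside 0.17. Wild-type replicate 1 holds the mock large polysome array with the low median of 5.67 before centring. The 90 genes had the higher median for small polysomes minus non-polysomal RNA in all 6 mock gradients, and the lower one for large minus small polysomes in 5 of 6, the exception being wild-type replicate 3. No test was run on either. The arrays share their normalization, and the part of signal level in these differences was not tested.

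AT3G07350, a second protein of the DUF506 family beside AT2G38820, had gcn2 fraction means of 7.37, 7.13 and 7.37 with herbicide, against 7.95, 8.06 and 8.37 with mock. The groups did not overlap. The difference was -0.83, with an adjusted p from limma of 0.072 with all gradients and 0.0023 without wild-type replicate 3. In wild-type non-polysomal RNA without replicate 3 it was at -0.95 ± 0.21 (adjusted p from limma = 0.034).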
